A study of Mus musculus with 10 samples.

Results

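Of 201290 regions of the mouse genome that were open in at least 1 of 10 ATAC-seq libraries, 4646 (2.31%) were open in both libraries of freshly sorted Scf-GFP-positive bone marrow stroma and in none of the other 8. These regions were chosen by presence and absence of deposited peaks: overlapping peaks on chromosomes 1 to 19 and X were merged over all libraries, and a region counted as open in a library with any overlapping peak. The openness that chose them is therefore a description here, with no test. ATAC-seq uses a transposase to cut and tag accessible DNA, so a peak marks a stretch of chromatin where many fragments end. All libraries came from C57BL/6J mice, from 2700 to 5000 sorted cells each.

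The 4 groups differed as follows. Scf-GFP-positive cells (2 libraries) and Scf-GFP-negative cells (2 libraries) were both sorted fresh from marrow as negative for CD45, Ter119 and CD31, with no gene transduced, and differed in the GFP gate alone. GFP here reports Scf, the gene of stem cell factor (Kitl). Control stroma (3 libraries) and rMSC (3 libraries) were both cultures seeded from cells of the Scf-GFP-positive gate in 20% serum with 10 ng/ml basic FGF. Control stroma carried a control vector, and rMSC, the submitters' "revitalized MSCs", carried Klf7, Ostf1, Xbp1, Irf3 and Irf7. All 6 cultures thus share both culture and transduction, which the fresh groups lack, so the 2 cannot be told apart. The labels do not say whether replicates came from separate animals or cultures. A p-value then reflects no more than how these libraries vary among themselves, and that variation may be technical. Replicate 1 of each group ran on flow cell AHY33MBCXX and all other libraries on AC99CPACXX, as the deposited names give them.

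Perivascular reticular cells of the marrow make stem cell factor and the chemokine Cxcl12, which hold blood stem cells in place, and they can give rise to bone and fat. Accessible chromatin of a cell type falls into promoters, most of which are CpG-rich and open in many tissues, and distal elements such as enhancers, which differ more between cell types. Grown on plastic in serum, such stromal cells are known to lose part of their niche factor expression.

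Most of the 4646 regions lay away from gene starts, but 132 held the start of a protein-coding gene in the RefSeq promoter table (GRCm38.p6, the assembly of mm10; 17274 of 21631 protein-coding genes had a start there). A few of these starts are printed because they show the range of promoter types among the regions: Gucy1b1 and Gnai1, the strongest, and Lepr, Adipoq and Ibsp, genes of reticular cells, fat and bone that were chosen after their values were seen. Each window runs from 250 bases before to 50 bases after the start, 5′ to 3′ on the gene's strand, and capitals mark every CpG.
Gucy1b1: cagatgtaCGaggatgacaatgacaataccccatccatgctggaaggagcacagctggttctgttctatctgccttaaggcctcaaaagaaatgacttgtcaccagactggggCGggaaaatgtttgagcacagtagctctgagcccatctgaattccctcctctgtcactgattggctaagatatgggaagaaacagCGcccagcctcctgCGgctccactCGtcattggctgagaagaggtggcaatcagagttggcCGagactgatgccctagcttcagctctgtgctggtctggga
Gnai1: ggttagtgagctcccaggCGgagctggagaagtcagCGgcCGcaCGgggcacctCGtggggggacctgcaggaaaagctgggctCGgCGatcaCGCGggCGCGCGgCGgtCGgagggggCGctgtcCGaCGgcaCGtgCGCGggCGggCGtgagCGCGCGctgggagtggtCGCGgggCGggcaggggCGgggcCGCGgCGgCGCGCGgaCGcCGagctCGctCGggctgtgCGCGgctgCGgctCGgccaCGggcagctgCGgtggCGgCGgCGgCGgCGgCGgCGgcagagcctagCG
Lepr: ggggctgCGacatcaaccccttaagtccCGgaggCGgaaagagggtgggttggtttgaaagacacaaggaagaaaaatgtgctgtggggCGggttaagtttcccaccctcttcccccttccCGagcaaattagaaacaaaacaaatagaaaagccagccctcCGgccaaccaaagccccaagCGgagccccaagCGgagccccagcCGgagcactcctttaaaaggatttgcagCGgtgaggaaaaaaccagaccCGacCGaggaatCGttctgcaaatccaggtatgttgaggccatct
Adipoq: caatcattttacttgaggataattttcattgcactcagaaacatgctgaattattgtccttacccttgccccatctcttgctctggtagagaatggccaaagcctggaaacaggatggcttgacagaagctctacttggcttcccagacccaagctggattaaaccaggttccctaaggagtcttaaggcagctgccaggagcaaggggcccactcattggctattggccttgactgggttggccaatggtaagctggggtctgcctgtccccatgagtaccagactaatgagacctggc
Ibsp: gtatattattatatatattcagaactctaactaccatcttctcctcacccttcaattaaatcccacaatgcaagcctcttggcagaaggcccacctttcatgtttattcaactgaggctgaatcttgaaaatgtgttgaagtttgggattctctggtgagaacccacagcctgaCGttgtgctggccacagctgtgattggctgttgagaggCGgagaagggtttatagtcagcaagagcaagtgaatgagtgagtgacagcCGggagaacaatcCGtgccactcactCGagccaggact
The windows lie at chr3:82074662-82074961 (Gucy1b1, minus strand), chr5:18360364-18360663 (Gnai1, minus), chr4:101717656-101717955 (Lepr, plus), chr16:23146286-23146585 (Adipoq, plus) and chr5:104299037-104299336 (Ibsp, plus). Gnai1, an inhibitory G protein subunit, had 53 CpGs in 300 bases and 80.0% GC. Lepr, the leptin receptor that marks marrow reticular cells, had 13 CpGs, and Gucy1b1, the beta subunit of the nitric oxide receptor guanylate cyclase, had 6. Ibsp, the bone matrix protein bone sialoprotein, had 5, and Adipoq, the hormone adiponectin, had none.

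The same spread held over all promoter windows that shared bases with one of the 4646 regions. In these 226 windows the median GC content was 59% and the median ratio of observed to expected CpGs was 0.486, with 114 windows (50.4%) under 0.5. Among 13064 windows that shared bases with another region open in both Scf-GFP-positive libraries, the median ratio was 0.784 and 15.8% fell under 0.5. Over all 32585 windows of the table the median was 0.386, with 57.9% under 0.5. By this ratio the windows of the set lay between the other open starts and all starts.

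As peaks, the regions were of middle to low strength. Deposited fold enrichment, the authors' ratio of fragments at the summit to the caller's background, had a median of 6.39 in Scf-GFP-positive replicate 1 and 5.66 in replicate 2. That corresponds to 8 fragments at the summit in each library, with an interquartile range of 6 to 10 in replicate 1 and of 6 to 11 in replicate 2. The 27228 regions that were open in both Scf-GFP-positive libraries and in others had medians of 12 and 13 fragments. When all 31874 regions open in both libraries were ordered by the weaker of their 2 ranks, the weakest of 10 equal bins held 948 of the 4646 (29.7% of that bin), the ninth bin 21 and the strongest bin none of its 3188. Fold enrichment correlated between the 2 Scf-GFP-positive libraries with a Spearman rho of 0.444 over the 4646 regions and of 0.844 over the other 27228, a description over regions of the same 2 libraries.

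**Figure D1:**
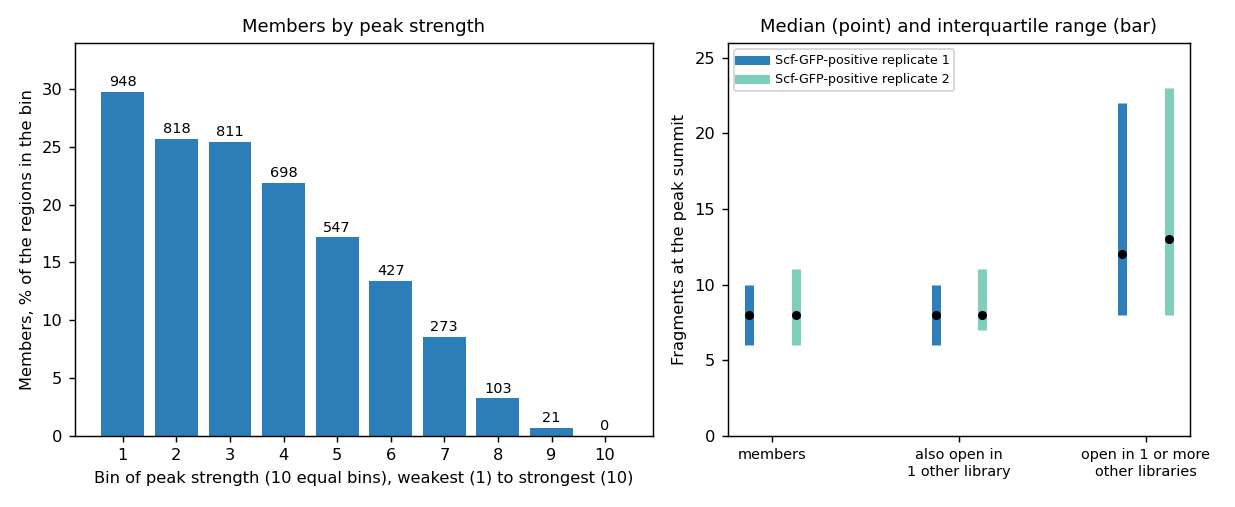
Left, share of regions open only in the Scf-GFP-positive libraries (% of regions open in both) by bin of peak strength, each bin 10% of the regions, with their number above each bar; right, fragments at the summit in each Scf-GFP-positive library, point for the median and bar for the interquartile range. The share falls from 29.7% in the weakest bin to 0 in the strongest, and the regions have a median of 8 fragments against 12 and 13 for regions also open elsewhere.

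A region counted as closed had no deposited peak, which is not a measurement of closed chromatin. Across the 10 libraries the weakest deposited peak had 3 to 5 fragments at its summit, and the lists ran from 39912 to 78470 peaks. Just outside the rule, 1739 regions were open in both Scf-GFP-positive libraries and 1 other, with medians of 8 fragments in each library like those of the chosen regions. The single other library was control replicate 2 for 415 of them, control replicate 3 for 414, rMSC replicate 3 for 200, Scf-GFP-negative replicate 2 for 180, rMSC replicate 1 for 166, rMSC replicate 2 for 155, Scf-GFP-negative replicate 1 for 130 and control replicate 1 for 79. A further 6597 regions were open in Scf-GFP-positive replicate 1 alone and 18989 in replicate 2 alone. In libraries made from many cells, fewer cells with a region open and less accessible DNA in each cell cannot be told apart.

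By position the regions were mostly distal. The promoter table holds no start on chromosome 18. Within 1 kb of any annotated gene start lay 370 of the 4472 regions on the other chromosomes (8.27%, 95% Clopper-Pearson interval 7.48 to 9.12, for counting error only). Regions open in both Scf-GFP-positive libraries and in others lay there in 39.6% of cases, regions open in all 10 libraries in 72.1%, and all regions in 10.2%. Against 2 similar sets, the share was below that of 4319 regions open in both Scf-GFP-positive and all 6 cultured libraries but no Scf-GFP-negative one (18.6%), and near that of 3463 regions open only in both Scf-GFP-negative libraries (7.40%). Their distance to the nearest start had a median of 26026.5 bp, and 33.2% lay more than 50000 bp away. That last share was 14.9% for the regions open only in Scf-GFP-negative cells, whose median distance was 12078 bp. Inside a protein-coding gene body lay 2472 (53.2%), a further 461 within 10000 bp of one, 1010 at 10 to 100 kb and 703 beyond that. Median width was 507.5 bp, with an interquartile range of 396 to 663 bp, against 1063 bp for the other regions open in both libraries.

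**Figure D2:**
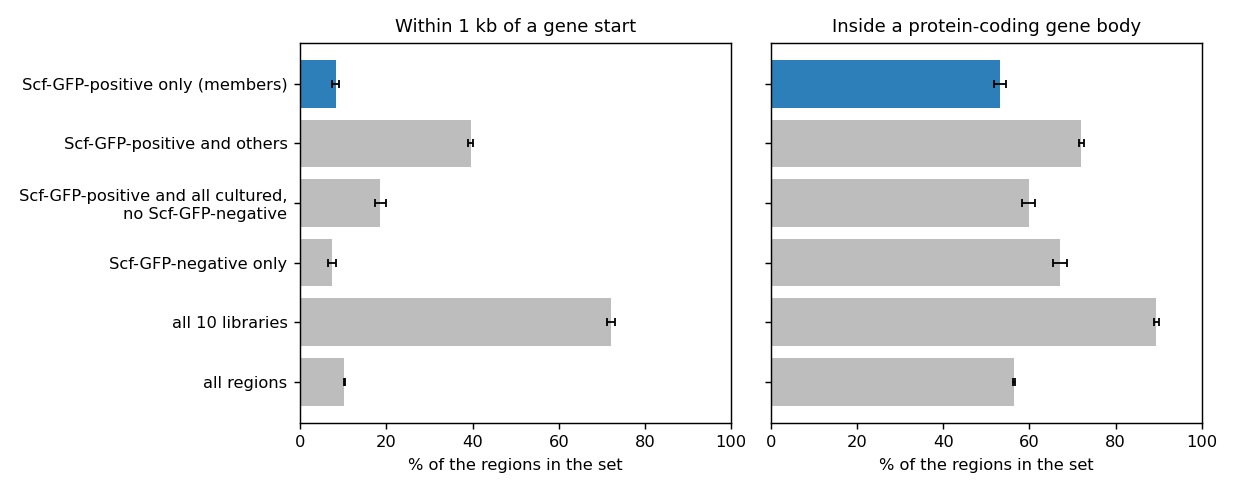
Percent of regions within 1 kb of an annotated gene start (left) and inside a protein-coding gene body (right) for 6 sets of regions, with exact 95% binomial intervals for counting error. The regions open only in Scf-GFP-positive libraries (blue) sit at 8.27% and 53.2%, below those also open elsewhere (39.6% and 72.1%).

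The strongest region of all covered the start of Gucy1b1 (chr3:82073494-82075020). Fold enrichment there was 22.7 in replicate 1 and 19.5 in replicate 2, from 31 and 30 fragments. Its partner gene Gucy1a1, which encodes the alpha subunit of the same nitric oxide receptor, lies next to it on chromosome 3 and was looked at after the values were seen. Around Gucy1a1 (body and 10 kb either side), Scf-GFP-positive replicates 1 and 2 had 4 and 3 open regions and the other 8 libraries had none. Both counts include 3 regions of the set, which the rule keeps out of the other 8, so most of this contrast is fixed by the rule. Of 3 regions of the set at that locus, 2 held an annotated start of the gene, at chr3:82145552-82146059 (6.39-fold and 7.54-fold) and chr3:82144853-82145479 (5.68-fold and 11.9-fold). At Gucy1b1 itself, control replicates 2 and 3 each had 1 other open region and the remaining 6 libraries outside the Scf-GFP-positive pair none.

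Gnai1 had the strongest start after Gucy1b1, at chr5:18359538-18361381, with 31 and 23 fragments (22.7-fold and 15.1-fold). Its locus held 2 and 4 open regions in the Scf-GFP-positive libraries and none in any other library. With the set's own 2 regions left out, which the rule keeps out of the other libraries, the Scf-GFP-positive libraries had 0 and 2 at Gnai1. The 6 highest-ranked starts were completed by Cadps2 and Syt9, both of vesicle release, Frmd3, of the FERM domain family, and the imprinted zinc finger gene Zim1, with 10.1-fold to 19.2-fold enrichment over both libraries. Lower in the order came starts of other signalling genes, picked out after their values were seen: Adcy2, an adenylate cyclase (12.1-fold and 12.6-fold), the leukotriene receptor Cysltr2 (9.23-fold and 8.80-fold), the growth factor Pgf (8.52-fold and 7.54-fold) and the histamine receptor Hrh1 (7.10-fold and 6.91-fold).

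The other 13 of the 15 highest-ranked regions lay outside protein-coding starts. Nearest to them were Wdr38, Alx1, a homeobox factor, Stxbp6, a regulator of vesicle fusion, Mbl1, a mannose-binding lectin with 2 of the regions, Fam178b, Tent4a, Anks1b, Fshr, the receptor of follicle-stimulating hormone, Ldb2, a cofactor of LIM homeobox proteins, Slc15a5, Rgma, a co-receptor for bone morphogenetic proteins, and Ncaph, a condensin subunit. Distances show that the nearest gene is a name and not a target: the regions beside Rgma, Fshr and Tent4a lay 376474, 353872 and 233428 bp from those gene bodies. At Mbl1 the 2 regions stood at chr14:41146803-41147641, 3815 bp before the gene (27 and 23 fragments), and at chr14:41160582-41161427 inside it (25 and 28 fragments). There the Scf-GFP-positive libraries had 4 open regions each, rMSC replicate 1 had 1 and the other 7 none. With the set's own 3 regions left out, the Scf-GFP-positive libraries had 1 each, no more than rMSC replicate 1.

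Some regions formed clusters. With neighbours joined at gaps of up to 10000 bp, 3697 (79.6%) stood alone, 352 pairs and 58 triples formed, and 7 chains held 5 or more. The chain with most regions, 9 in 19947 bp (chr7:19279207-19299153), crossed Rtn2, a reticulon of the endoplasmic reticulum, and reached toward Fosb, an AP-1 subunit. Over that stretch the Scf-GFP-positive libraries had 12 and 16 open regions and the other libraries 1 to 3 each. A chain of 5 in 20651 bp lay 12185 bp from Kazn, where the Scf-GFP-positive libraries had 5 and 7 open regions and the other 8 none. At Ano1, a calcium-activated chloride channel, a chain of 5 spanned 6116 bp, with 6 and 5 open regions in Scf-GFP-positive cells and none in the other 8 libraries. A chain is drawn around regions that the rule keeps out of those 8 libraries, so such gaps are largely fixed by the rule. At Kazn and Ano1 all 5 regions open in both Scf-GFP-positive libraries belonged to the set, and in the Rtn2 chain 9 of 12 did. Chains of 5 also stood in St3gal6, Heyl, a Notch target, and Antxr1, and 30834 bp from Rgs3, the nearest gene of the last.

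Of 21631 protein-coding loci, each the gene body with 10 kb either side, 2350 (10.9%) held at least 1 of the regions, 251 held 3 or more and 47 held 5 or more. The median locus spanned 37329 bp, and the median locus with a region 73913.5 bp. Negr1, a cell adhesion molecule of the immunoglobulin family, led with 13 regions among 18 and 19 open in the Scf-GFP-positive libraries. The Scf-GFP-negative libraries had 2 and 0, control 4, 2 and 5, and rMSC 5, 7 and 10. Such counts include the set's own regions, which the rule keeps out of the other libraries. With its 13 left out, Negr1 had 5 and 6 in the Scf-GFP-positive libraries, below the 10 of the highest other library. Tenm4, a teneurin, had 10 regions of the set, Prkce and Rtn2 9 each, Limch1 and App 8 each, and Rgs3, Pdzd2, St3gal6 and Arhgap26 7 each. St3gal6, a sialyltransferase, stood apart among them in the cultures: 13 and 17 regions were open in Scf-GFP-positive cells, 8 and 9 in Scf-GFP-negative cells, and 0 to 2 in each cultured library. With its 7 regions of the set left out, St3gal6 had 6 and 10 in Scf-GFP-positive cells, beside 9 in the highest other library, a Scf-GFP-negative one.

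For most of these loci it was single elements and not the whole locus that lacked a peak in the other libraries. Of the 2350 loci, 1999 (85.1%) had an open region in each of the 6 cultured libraries, and 40 (1.70%) had none in any of the other 8. Among those 40, Gucy1a1 and Msc, a basic helix-loop-helix factor, held 3 of the regions each, and Gnai1, Slc15a5, Bend5, Lrfn1, Zfp711 and Btla held 2 each.

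Reticular stroma genes held regions of the set at 11 of 25 loci (44.0%), beside 10.9% of all protein-coding loci. Regions of the set made up 19 of the 79 regions open in both Scf-GFP-positive libraries at these loci (24.1%), against 9.55% summed over all loci, where overlapping loci count a region more than once. Over the whole genome, with each region counted once, the set was 14.6% of the 31874 regions open in both. The median count per locus was 0 in both. Lepr had 2, of which 1 (chr4:101717358-101718374) covered the start printed above with 9.23-fold and 5.66-fold enrichment and the other (chr4:101707583-101708589) lay 8548 bp before the gene with 10.7-fold and 10.1-fold. Open regions at Lepr numbered 2 and 3 in the Scf-GFP-positive libraries, 1 and 0 in the Scf-GFP-negative ones, 1 in each control library and 0, 1 and 0 in rMSC. With the set's own regions left out, the Scf-GFP-positive libraries had 0 and 1 at Lepr, no more than the 1 of the highest other library.

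Ebf1, an early B cell factor that reticular stroma also expresses, had 4 regions of the set, of 14 and 19 open, and the control libraries had 17, 25 and 35, so the locus as a whole had no fewer open regions in control than in fresh cells. Gas6, a ligand of Axl family receptors, had 3 of the regions. In Scf-GFP-positive cells 7 and 9 regions were open there, 1 and 0 in Scf-GFP-negative cells, 2 to 4 in control and 3 to 5 in rMSC. Without the set's own regions the Scf-GFP-positive libraries had 4 and 6 at Gas6, beside 5 in the highest other library. Tshz2, a zinc finger factor, also had 3, Adipoq had 1 at its start, and Ebf3 had 1. Foxc1 and Vcam1 had none.

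Niche factor genes followed at 7 of 25 loci (28.0%), or 13 of 83 open regions (15.7%), again with a median of 0. The 15.7% lay near the 14.6% over the whole genome with each region counted once. Bmp6, a bone morphogenetic protein, had 5, of 12 and 15 open regions. Against these stood 2 and 1 in the Scf-GFP-negative libraries, 6, 8 and 10 in control, and 5, 5 and 6 in rMSC. Without the set's own regions the Scf-GFP-positive libraries had 7 and 10 at Bmp6, not above the 10 of the highest other library. Bmp4, of the same family, had 1 at its start (7.10-fold and 8.80-fold). Il7, the cytokine of lymphoid progenitors, had 1 (10.7-fold and 6.91-fold). At its locus 3 and 6 regions were open in Scf-GFP-positive cells, none in Scf-GFP-negative cells, 2 in each control and 1 in each rMSC library. Without the region of the set the Scf-GFP-positive libraries had 2 and 5 at Il7, beside 2 in the highest other library. Il34 and Fgf1 had 2 each. Kitl, the gene that the reporter reads, had 1 weak region (7.81-fold and 3.77-fold), and its start was open in 8 libraries. With 7 regions open in each Scf-GFP-positive library, Kitl had 1 and 0 in the Scf-GFP-negative ones and 5 to 13 in culture. Cxcl12, Angpt1 and Csf1 held none, nor did 4 of the 5 transduced genes. Irf7 held 1.

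Osteoblast lineage genes had the highest share of any list, at 13 of 20 loci (65.0%) with a median of 1 per locus. At these loci 24 of 82 regions open in both Scf-GFP-positive libraries (29.3%) belonged to the set. The loci of the neighbours Bglap and Bglap2 overlap, so 1 region of the set counts at both. The list's median locus, 36673.5 bp, was about as long as that of all genes. Runx2, the master factor of the lineage, had 5 of the regions, Alpl, alkaline phosphatase, and Pth1r, the parathyroid hormone receptor, 3 each, and Sp7, a factor that acts after Runx2, 2. Alpl had 11 open regions in each Scf-GFP-positive library, 0 and 1 in the Scf-GFP-negative ones, 1, 2 and 2 in control and 1, 1 and 3 in rMSC. The rule fixes part of such a gap, since the counts include the set's own regions. With its 3 regions left out, Alpl had 8 in each Scf-GFP-positive library, still above the 3 of the highest other library. At Pth1r the counts were 10 and 11 against 1 and 1, then 4, 3 and 5 in control and 3, 3 and 5 in rMSC, and 1 of its regions (chr9:110743181-110744763) covered a gene start with 9.23-fold and 5.66-fold enrichment. Runx2 differed, since its 21 and 25 open regions overlapped the 15, 25 and 22 of the control libraries.

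At Ibsp, 2 and 1 regions were open in the Scf-GFP-positive libraries, 1 in Scf-GFP-negative replicate 1 and none in the other 7. With the set's own region left out, the Scf-GFP-positive libraries had 1 and 0 at Ibsp. The region of the set covered its start (chr5:104298874-104299648) with 11 and 16 fragments. Bglap, which encodes osteocalcin, also had its start covered (chr3:88384183-88385192), with 9 and 12 fragments, and is printed because osteocalcin is a known target of Runx2. Capitals in this window (chr3:88384417-88384716, minus strand) mark its 1 match to the RUNX letters TGTGGT, read on the other strand. Bglap has near-identical neighbouring copies, between which short reads can be hard to assign.
Bglap: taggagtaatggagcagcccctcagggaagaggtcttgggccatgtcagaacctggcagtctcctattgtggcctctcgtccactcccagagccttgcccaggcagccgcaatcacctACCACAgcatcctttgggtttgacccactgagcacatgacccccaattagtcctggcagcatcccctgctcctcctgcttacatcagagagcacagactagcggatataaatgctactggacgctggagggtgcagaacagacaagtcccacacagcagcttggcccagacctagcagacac

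Adipocyte lineage genes had 7 of 19 loci with a region (36.8%), and 11 of 52 open regions (21.2%). Zfp423, a preadipocyte factor, had 4, Plin4, a lipid droplet protein, 2, and Apoe, an apolipoprotein, 1 at its start (12.1-fold and 12.6-fold). Pparg, the master factor of fat cells, had 1 at a start (8.52-fold and 6.29-fold). Among smooth muscle and pericyte genes 7 of 16 loci (43.8%) and 12 of 56 open regions (21.4%) were in the set. Abcc9, a potassium channel subunit of pericytes, had 3. Its locus had 6 and 8 open regions in Scf-GFP-positive cells, 2 and 0 in Scf-GFP-negative cells, 0, 0 and 1 in control and 2, 1 and 2 in rMSC. Des, desmin, had 2, with 5 and 7 open regions in Scf-GFP-positive cells and at most 2 in any other library. Fibroblast and matrix genes stood lower, at 5 of 20 loci and 8 of 52 regions (15.4%), and chondrocyte genes had 1 of 13 loci, Col2a1. The 15.4% lay near the 14.6% over the whole genome.

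**Figure D3:**
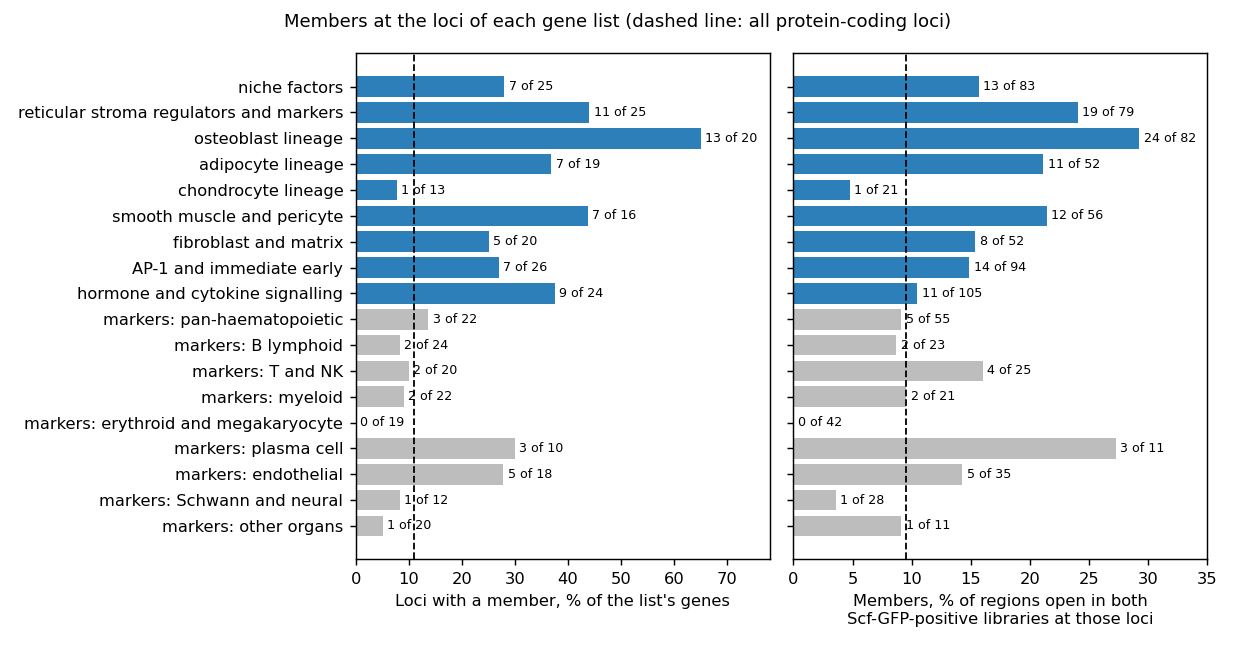
For each gene list, percent of loci with at least 1 region of the set (left) and the set as a percent of regions open in both Scf-GFP-positive libraries at those loci (right), with counts; blue, stromal and signalling lists; grey, markers of other cell types; dashed line, all protein-coding loci (10.9% and 9.55%). Osteoblast loci have the highest bars at 65.0% and 29.3%, and erythroid loci are at 0. With each region counted once, the set is 14.6% of all regions open in both Scf-GFP-positive libraries.

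Among AP-1 and immediate early genes, which respond within minutes to handling and growth signals, 7 of 26 loci (26.9%) held a region, and 14 of 94 open regions (14.9%) belonged to the set. The 14.9% lay near the 14.6% over the whole genome with each region counted once. Fosb had 6, which lie in the chain described above and count at Rtn2 too, and its start was open in all 10 libraries. Nr4a1, an orphan nuclear receptor, had 3, and Fos and Nr4a3 had 1 each. Hormone and cytokine signalling genes had a region at 9 of 24 loci (37.5%), but these are long genes (median locus 109972 bp), and the set made up 11 of 105 open regions (10.5%), near the share over all loci. Igf1r had 3, and Stat3, Socs3 and Ghr 1 each.

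**Figure D4:**
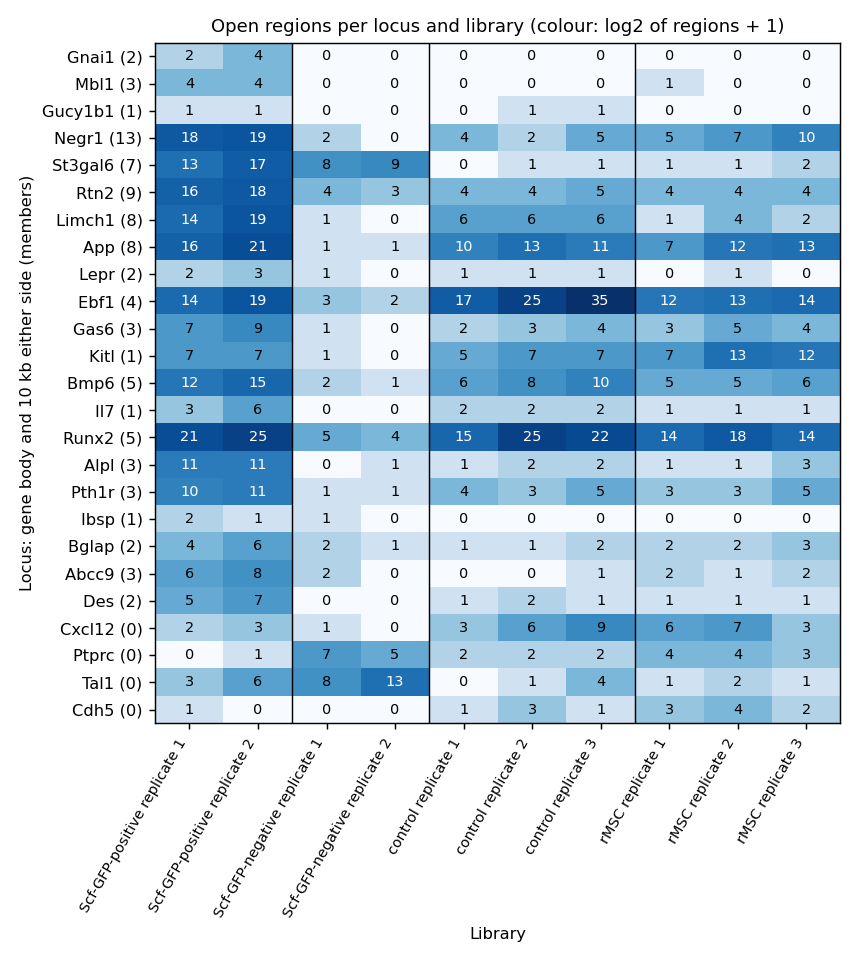
Number of open regions at 25 loci (rows, regions of the set in brackets) in each of the 10 libraries (columns); colour is log2 of the number + 1. Alpl, Pth1r, Abcc9 and Des have more open regions in both Scf-GFP-positive libraries than in any other library, also with the set's own regions left out, Ebf1 and Cxcl12 do not, and the blood gene Ptprc has 0 and 1 there.

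Markers of other cells that a sort could let through held the regions at 0 to 5 loci a list, but the Scf-GFP-positive libraries did carry open starts of some of them. Erythroid and megakaryocyte genes had no region at any of 19 loci, although 5 and 6 of 13 starts were open in the Scf-GFP-positive libraries, against 8 and 9 in the Scf-GFP-negative ones and 2 in each culture. Pan-haematopoietic genes had regions at 3 of 22 loci, 5 of 55 open regions (9.09%), and 11 and 9 of 18 starts open, against 9 and 11 in Scf-GFP-negative cells and 1 to 6 in culture. The defining Ptprc (CD45) locus had 0 and 1 open regions in Scf-GFP-positive cells and 7 and 5 in Scf-GFP-negative cells. B lymphoid, T and NK, and myeloid lists had regions at 2 of 24, 2 of 20 and 2 of 22 loci, with 1 to 3 starts open in each Scf-GFP-positive library. The set made up 8.70%, 16% and 9.52% of the open regions at these lists' loci. Plasma cell genes had a region at 3 of 10 loci (30%), or 3 of 11 open regions (27.3%), shares as high as those of several stromal lists though on few regions. Of 9 plasma cell starts, 4 were open in each Scf-GFP-positive library, 4 in each Scf-GFP-negative one and 3 or 4 in each culture. Endothelial genes had a region at 5 of 18 loci (27.8%), or 5 of 35 open regions (14.3%), close to the shares of the niche factor list. The 14.3% also lay near the 14.6% over the whole genome with each region counted once. Each of the 5 loci had 1 region, at Kdr over the start (4.26-fold and 4.40-fold). Endothelial starts open numbered 3 and 4 of 11 in Scf-GFP-positive cells, 0 and 1 in Scf-GFP-negative cells, 0, 1 and 2 in control and 3, 1 and 2 in rMSC. Of the genes that define endothelium, Cdh5 had 1 and 0 open regions in Scf-GFP-positive cells, Emcn none and Pecam1 1 and 3. In the same cells Vwf had 10 and 8, Plvap 7 and 5, Eng 6 and 5 and Stab1 5 and 6. The highest of the other libraries had 4 at Cdh5, 3 at Emcn and 5 at Pecam1. It had 16 at Vwf, 7 at Plvap, 6 at Eng and 5 at Stab1. Schwann and neural genes, and genes of other organs, had 1 locus each. The part of such cells in the set was not tested, and the rule itself removes any region that the Scf-GFP-negative libraries share.

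Gene starts at these loci were mostly open in the cultures too. Over 1670 genes with a region at the locus but not at the start, 73.5% and 74.9% of starts were open in the Scf-GFP-positive libraries. In control the shares were 66.0%, 68.4% and 70.4%, in rMSC 68.4%, 68.0% and 69.0%, and in Scf-GFP-negative cells 54.4% and 56.3%. Control and rMSC overlapped. At 1002 of these genes the start was open in both Scf-GFP-positive and all 6 cultured libraries, and at 349 (20.9%) it was open in no library. For 15472 genes without a region at the locus, starts were open at 54.4% and 55.6% in Scf-GFP-positive cells and at 52.0% to 54.4% in culture. Which genes hold a region depends on openness in Scf-GFP-positive cells, so their order against the other groups has no test.

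Short motifs were searched on both strands in the same 300-base windows. A match is a stretch of letters and not a bound site. Shares are given for the 226 windows that share bases with the set, the 13064 that share bases with other regions open in both Scf-GFP-positive libraries, and all 32585. The ETS letters CCGGAA stood in 9.73%, 28.7% and 15% of windows, and the GC box GGGCGG in 47.3%, 67.4% and 35.9%. The EBF letters CCCNNGGG stood in 25.2%, 19% and 13.8%, those of RUNX (TGTGGT) in 17.3%, 11.6% and 16.6%, of C/EBP (TTGCNNAA) in 11.5%, 7.91% and 10.9%, and of NFI (TTGGCA) in 18.6%, 10.0% and 14.1%. AP-1 (TGANTCA) stood in 3.54%, 4.29% and 7.85%. Shares of ETS and GC box letters were lower in the set's windows than in the other open starts, and those of EBF, RUNX, C/EBP and NFI higher, beside the lower CpG ratio given above; no test was made. KLF (CCNCNCCC) stood in 68.1%, 70.8% and 49.8% of the same 3 groups of windows, and the E-box CANNTG in 66.8%, 61.1% and 72.3%. Those letters overlap other motifs, KLF with the GC box among them. The other motifs stood in 0% to 13.7% of the set's windows and in 0.617% to 18.9% of all windows. They were, among factors of developmental signalling, TEAD (GGAATG), PKNOX/TGIF (TGACAG), homeobox (TAATTA) and FOX (TGTTTAC). Among blood and immune factors they were the GATA family site (AGATAA), STAT (TTCNNNGAA), the interferon response element (GAAANNGAA), PU.1-type ETS (GAGGAAGT) and NF-kB (GGGANTTCC). The rest were the CTCF core (CCACNAGG), the steroid receptor site (ACANNNTGT), EGR (GCGTGGGCG), the octamer (ATGCAAAT) and NR4A (AAAGGTCA).

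Of 1005 microRNA hairpins, 5 lay within 1 kb of a region of the set. Of these, 3 belong to 1 cluster on chromosome 11, where the region chr11:70233980-70234632 (7.81-fold and 7.54-fold) ends just before Mir497, Mir497b and Mir195a. The cluster's 2 main mature products are shown because they share a seed, bases 2 to 8, in capitals.
mmu-miR-497a-5p: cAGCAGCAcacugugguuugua
mmu-miR-195a-5p: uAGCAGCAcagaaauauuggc
Mir1199 and Mir7210 were the other two.

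The set is closed in control and rMSC alike, so a comparison of those 2 groups at its loci did not choose it. This comparison asks whether the 5 transduced genes move chromatin around the regions. Peak summits per locus were counted in lists cut to the same 39912 strongest peaks and tested with limma on log2(summits + 0.5). Adjustment was by Benjamini-Hochberg over the 9137 loci that averaged 2 summits or more across all 10 libraries. That average includes the Scf-GFP-positive libraries that chose the set, and some loci passed only through them. Alpl, Col13a1, C1qtnf7 and Tbx18 were among these. Shares at loci of the set and over all loci are therefore not on an equal footing. Of all loci tested, 1.43% had more summits in rMSC and 1.14% fewer, 131 and 104 loci. Among the 1603 of 2350 loci with a region of the set that were tested, 26 (1.62%) had more and 45 (2.81%) fewer. At the 211 with 3 or more regions, 1 had more and 12 fewer. The median log2 difference was 0 both over the 1603 loci and over all. The tilt toward fewer was not stable. A fit on the 6 cultured libraries alone, with the filter over those, called 47 with more and 46 with fewer. A fit with the replicate number as a block called 16 and 16, and a fit without control replicate 2 12 and 11. Fewer still outnumbered more with flow cell as a term (16 and 28), a pseudocount of 1 (30 and 53) and no filter (48 and 91). The same held without each other cultured library in turn. Loci of the set are longer than others, and the totals moved too: with all deposited peaks in place of equal lists, 9 of them were called, 4 with more and 5 with fewer, out of 35 called in all. Without control replicate 3 the equal lists gave 14 calls, and without any other cultured library 23 to 34.

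Pdgfd, a ligand of the PDGF receptor beta, was called under every setting that left out a library, and with all deposited peaks. Control libraries had no summit there and rMSC had 5, 5 and 4 (limma adjusted p = 0.00111). The Scf-GFP-positive libraries had 4 each and the Scf-GFP-negative ones 4 and 7. With the replicate number as a block, the limma adjusted p at Pdgfd was 0.0150. Fry, a regulator of cell shape and division, had 1 summit in each control library and 8, 6 and 5 in rMSC. The log2 difference was 2.16 ± 0.23 (SE, adjusted p = 0.00651, limma). Scf-GFP-positive cells had 17 and 10 summits at Fry, and Scf-GFP-negative cells had more, 20 and 24. Fry too was called without each library in turn and with all peaks, but not with the replicate block (limma adjusted p = 0.0643). Col13a1, a transmembrane collagen with 3 regions of the set, had 5 and 8 summits in Scf-GFP-positive cells and none in Scf-GFP-negative or control libraries. In rMSC it had 2, 4 and 5 (limma adjusted p = 0.00735), also below 0.05 without each library in turn. The limma adjusted p was 0.146 with all deposited peaks and 0.0905 with the replicate block. Dtna and C1qtnf7 had more summits in rMSC as well, with adjusted p-values of 0.0382 and 0.0358 that reached 0.115 and 0.0955 when 1 library was left out and were 0.0636 and 0.0607 with flow cell as a term (limma).

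Among loci with fewer summits in rMSC, Gda, a guanine deaminase, had 4, 4 and 2 in control and none in rMSC. The limma adjusted p was 0.00383, and 0.0234 with all peaks. The Scf-GFP-positive libraries had 2 and 3 summits at Gda and the Scf-GFP-negative ones 6 and 7. Xylt1, a xylosyltransferase of proteoglycan synthesis, had 9, 5 and 11 in control and none in rMSC (adjusted p = 0.00201, limma, and 0.0923 with all peaks). Scf-GFP-positive cells had 8 and 12 summits at Xylt1 and Scf-GFP-negative cells 13 and 14. Both were called without each library in turn, but neither with the replicate block (limma adjusted p 0.0814 for Gda and 0.0548 for Xylt1). Zfp521, a zinc finger factor of mesenchymal cells, Pappa, a protease that cleaves IGF-binding proteins, and Stox2 had log2 differences of −3.86, −2.83 and −2.78, with limma adjusted p-values of 0.0460, 0.0231 and 0.0202 that rose to 0.134, 0.0739 and 0.0725 with 1 library left out. With flow cell as a term Zfp521 had a limma adjusted p of 0.0590, and the other two stayed under 0.05. Pdgfd, Col13a1, Xylt1 and Gda have a group at 0, so the size of a fold there would depend on the pseudocount and none is given.

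From the gene lists, 7 loci of the set passed. Of the tested loci of the set in each list, these were 2 of 7 for reticular stroma and 2 of 4 for adipocyte genes. They were 1 of 8 for osteoblast, 1 of 3 for smooth muscle, 1 of 9 for hormone signalling and 1 of 1 for Schwann genes. Pparg is in 2 lists, and the other lists had none. Over all 9137 loci tested, 1.43% had more summits in rMSC and 1.14% fewer. Wif1, an inhibitor of Wnt ligands, had more summits in rMSC, 5, 3 and 3 against 1 in each control library (log2 difference 1.44 ± 0.18 SE, limma adjusted p = 0.0118), as had Tbx18, a pericyte factor, with 3, 2 and 2 against 1 each (log2 difference 0.90, limma adjusted p = 0.0460). Fewer in rMSC were found at Ebf1, with 8, 7 and 7 against 12, 12 and 17 (log2 difference −0.84, limma adjusted p = 0.0370), at Zfp423 (−1.06), Pparg (−1.19), Socs3 (−0.82) and Ncam1 (−1.12), with limma adjusted p-values of 0.0417 to 0.0462. With flow cell as a term in the fit, 6 of the 7 were not called (limma adjusted p 0.0607 to 0.0753) and Wif1 was (0.0199). None of the 7 was called with all deposited peaks, where their adjusted p-values ran from 0.0939 to 0.739, and Ebf1, Pparg and Tbx18 were called in none of the fits without 1 library. At Lepr, Il7, Ibsp, Bglap and Abcc9 too few summits remained for a test. Alpl, Pth1r, Runx2, Bmp6, Gas6 and Kitl were tested, with log2 differences between −1.17 and 0.85 and limma adjusted p-values of 0.100 to 0.751. At Alpl the counts were 1 summit in each control library and 0, 0 and 1 in rMSC.

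**Figure D5:**
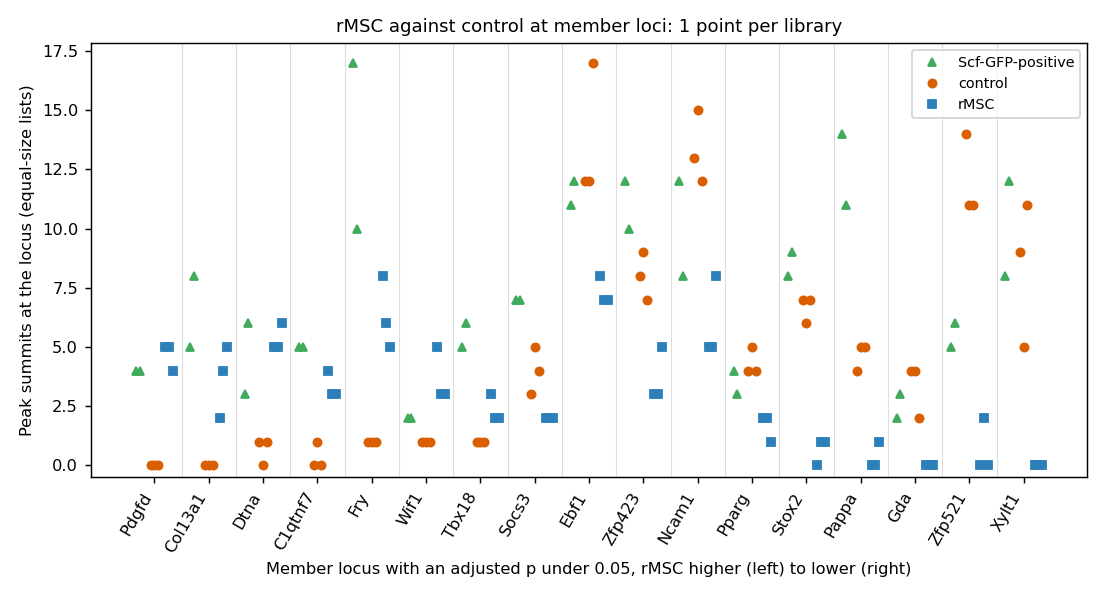
Peak summits per library (equal lists) at 17 loci of the set with a limma adjusted p under 0.05, ordered from more in rMSC to fewer; green triangles, Scf-GFP-positive; orange circles, control; blue squares, rMSC. Of the 17, 7 have more summits in rMSC and 10 fewer. They are a picked part of the 71 called loci of the set, of which 26 have more and 45 fewer. Drawn are 5 in each direction picked by size of change and the called loci of the gene lists, so 7 and 10 are not the outcome. Pdgfd stands at 0 in each control library and at 4 to 5 in rMSC. Scf-GFP-negative libraries are not drawn.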

How the data were processed

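For every library the authors deposited 1 peak list, called from that library by itself. BWA, MACS2 and mm10 are named per the submitters' processing notes. Their versions were not given in the sources used here. Each deposited peak carries a score, a fold enrichment (a ratio of summit pileup to background), and −log10 p- and q-values, and the summit's offset. Whole fragments at the summit were recovered from the deposited fold with a pseudocount of 1 in both terms; 100% of values were whole within 0.01. No read totals are in the lists, so depth is unknown and weak peaks limit the precision.

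Peaks on chromosomes 1 to 19 and X were merged at 1 bp of overlap with pandas 2.3.3. Genes, promoter windows and microRNAs are RefSeq GRCm38.p6; exons and introns were not used here. A locus is a protein-coding body and 10000 bp either side. The rMSC and control test used limma 3.58.1 in R 4.3.3, with a mean-variance trend and all 10 libraries in 4 groups; ties at the list's cut were drawn at random. On 9137 loci simulated with independent Poisson counts it recovered 46 of 100 loci changed 4-fold and 1 of 100 changed 2-fold. The simulated spread was not taken from the replicates, so these rates need not hold for the real counts. Alternatives were equal lists, stricter q, trimmed peaks, single flow cells, other pseudocounts, filters and tie draws, a replicate block and leaving out libraries.

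The set of regions and the 18 gene lists were chosen with earlier results of these data known. Named by rule were the 15 strongest regions, the 10 loci with most, up to 4 genes a list, the 6 strongest starts, niche genes, transduced genes, and 5 called loci in each direction. Numbered clones, olfactory receptors and vomeronasal receptors were left unnamed.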

Additional observations from a re-analysis of the deposited data

How the results depend on the processing

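The number of regions open only in both Scf-GFP-positive libraries, 4646, was 2130 when these 2 libraries had to reach a −log10 q of 5, 25498 on flow cell AC99CPACXX alone and 16594 on AHY33MBCXX alone. Leaving out 1 library gave 4730 to 24202, the highest when Scf-GFP-positive replicate 1 was dropped, and 11777 when its replicate 2 was, which leaves 1 such library to decide. The share within 1 kb of a gene start, 8.27%, was 9.97% with equal-size lists, 10.7% with a −log10 q of 5 everywhere, 9.13% with trimmed peaks, 7.17% and 10.6% on the single flow cells, and 6.62% to 8.88% without 1 library. The share inside gene bodies was 50.5% with the strict q in Scf-GFP-positive libraries and 56.2% on AHY33MBCXX, and 53.0% to 54.6% without 1 library. Median width, 507.5 bp, was 586, 629 and 611 bp with equal lists and the 2 strict settings, 276 bp with trimmed peaks, 228 and 264 bp on the single flow cells, and 226 to 512 bp without 1 library. The cause of these shifts was not tested.

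Loci of the set called between rMSC and control numbered 71. They were 44 with flow cell as a term, 139 with no filter, 9 with all deposited peaks, 13 at loci with 3 or more regions, and 14 to 34 without 1 library, the lowest without control replicate 3. A pseudocount of 1 gave 83, the 6 cultured libraries alone 93 (47 with more in rMSC, 46 with fewer, against 26 and 45), and a second random draw among tied peaks, chosen after seeing the data, 75. Deviations of same-numbered control and rMSC libraries correlated at −0.007, −0.016 and −0.006, so no pairing by replicate number was seen. Counts of a few summits a locus cannot exclude a pairing. The fit with a replicate block gave 32, 16 in each direction. The lists hold no read totals, and a weak peak missing from a short list limits every count of regions absent elsewhere.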
